A study of Mus musculus with 4 samples.

Results

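A set of 10 genes that p53 is known to switch on during cell death was followed through neural stem cells of 4 genotypes, and every member was read in every library. The members were Bax, Bbc3, Pmaip1, Fas, Tnfrsf10b, Perp, Apaf1, Eda2r, Aen and Phlda3, picked by symbol from the 14949 genes of the isoform table, which held 32 isoforms of these genes among 46637 assigned to a gene. Primary neural stem cells were grown from the dorsal neocortex of gene-floxed mouse embryos at mid-gestation, and RNA was read as PCR-amplified cDNA on a Nanopore long-read sequencer, 1 library per genotype. The control, Tut1f/f, carried floxed Tut1 alleles and received an empty lipid nanoparticle (LNP). The other 3 received LNP with mRNA for Cre recombinase, which excises floxed DNA: Tut1f/f;Cre (the Tut1-targeted library, labelled Tut1 KO), Trp53f/f;Cre (the Trp53-targeted library, genotype p53f/f, labelled P53 KO) and Tut1f/f;Trp53f/f;Cre (the double-targeted library, labelled Tut1 and P53 KO). Treatment with Cre mRNA lasted 3 days. No library of Trp53f/f cells with empty LNP was analysed here, so Cre mRNA and genotype cannot be told apart in a comparison with the control. Culture of origin and genotype cannot be told apart in any comparison, and with 1 library a side no comparison of 2 libraries has a replicate check.

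The p53 protein, encoded by Trp53, is a transcription factor that DNA damage and other stresses stabilise, and it can halt the cell cycle or start apoptosis. In the mitochondrial route, the BH3-only proteins Puma (Bbc3) and Noxa (Pmaip1) release Bax, Bax opens the outer mitochondrial membrane, and released cytochrome c assembles with Apaf1 into the apoptosome that activates caspases. Receptors of the TNF family carry death signals from the cell surface, and developing neural progenitors are known to be sensitive to p53 activation. The comparisons below ask how the transcripts of this programme stood when Tut1, the enzyme that adds uridines to U6 small nuclear RNA, Trp53, or both were targeted.

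Between 3936827 and 5125888 reads were counted per library, of which 17.2% lay on entries without a gene in the control and 27.3% to 30.2% in the 3 Cre-treated libraries. The share of gene reads on a single ribosomal RNA gene was 18.7% in the control and 5.46% to 9.75% elsewhere, and the median annotated length of the transcripts that reads were assigned to was 1249 nt in the control against 1015 to 1062 nt in the 3 Cre-treated libraries. The control therefore stands apart from the other libraries by these 3 measures, and their part in the values below was not tested. Trp53 itself was covered by 175 reads in the control, 67 with Tut1 targeted, 10 with Trp53 targeted and 19 with both. Tut1 had 37, 11, 14 and 27 reads in the same order, a level of 9.26 CPM (counts scaled to 1000000 reads) in the control and 9.04 in the double-targeted library. The study describes loss of an exon from Tut1 mRNA. In Tut1f/f cells given Cre mRNA it reports efficient deletion, measured on that exon by qPCR or Nanopore reads. Gene counts include reads on the remaining exons and do not check that loss, so knockout of Tut1 is taken from the labels and that report here. Of 10 neural stem cell markers 9 were read in every library (Notch1 at 0), with a summed level of 11817 to 13163 CPM, most of it Fabp7 (9613 to 11246 CPM). Single stem cell markers differed more by the 2-fold rule described with the ratios. With Tut1 targeted 4 of 9 tested were higher than in the control (Nes, Pax6, Sox9 and Hes1), where 13.1% of all genes were. With Trp53 targeted 3 were (Nes, Sox9 and Hes1), where 13.2% of all genes were. Hes1 was at 149, 505, 466 and 447 CPM, while Vim was at 1259, 767, 635 and 615 CPM. The part of this in the values of the 10 genes was not tested. Neuron markers summed to 75.6 to 88.8 CPM with Rbfox3 at 0, oligodendrocyte-lineage markers to 116 CPM in the control and 40.3 to 49.1 elsewhere, and astrocyte markers to 49.3, 12, 7.06 and 31.1 CPM with Gfap at 0. In each of the latter sums 1 gene carried the difference: Cnp at 79.8, 10.4, 6.47 and 9.38 CPM, beside Pdgfra at 28.8, 26.7, 27.3 and 26.1, and Aldh1l1 at 46.8, 5.34, 3.23 and 23.8 CPM, beside S100b at 2.50, 5.34, 2.94 and 7.03. Microglia markers reached at most 0.882 CPM, fibroblast and mural markers at most 0.294, and endothelial markers were at 0. Xist had 0, 44, 49 and 0 reads in the order above and 4 Y-linked genes were at 0 in the Tut1-targeted library and the Trp53-targeted library, so the embryos of origin differed in sex between libraries. In RNA from a whole culture, fewer cells of a type and less RNA per cell cannot be told apart.

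Upstream sequence was read for the members with an entry in the RefSeq promoter table (assembly GRCm38.p6), which holds 250 bases before and 50 after each transcript start. Pmaip1, Tnfrsf10b and Perp had no entry. Bax and Phlda3 are shown because one had the most reads of the set and the other differed most between the control and the Tut1-targeted library, and Aen because its isoforms shifted most. Capitals mark a match to the p53 half-site consensus of 10 bases, which reads the same on both strands. Bax is at chr7:45466899-45467148 on the minus strand, Phlda3 at chr1:135765835-135766084 on the plus strand, and the stretch of Aen at chr7:78895927-78895956 on the plus strand, all 5′ to 3′.
Bax: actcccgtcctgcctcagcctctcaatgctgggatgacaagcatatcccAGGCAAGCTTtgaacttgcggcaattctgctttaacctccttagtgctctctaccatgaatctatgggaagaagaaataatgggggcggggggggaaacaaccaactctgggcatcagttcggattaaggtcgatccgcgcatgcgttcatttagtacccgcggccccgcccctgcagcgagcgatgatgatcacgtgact
Phlda3: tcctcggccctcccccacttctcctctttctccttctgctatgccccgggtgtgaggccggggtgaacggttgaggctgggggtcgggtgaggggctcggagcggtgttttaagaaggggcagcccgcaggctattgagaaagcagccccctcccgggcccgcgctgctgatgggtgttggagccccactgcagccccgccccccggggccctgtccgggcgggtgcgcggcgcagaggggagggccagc
Aen: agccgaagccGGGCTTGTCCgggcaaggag
The match in Bax began 201 bases before the start. That in Aen began at base 11 of a RefSeq transcript, which is 121 bases before the start of another. Of the 7 members with an entry, 2 held a half-site in any of their windows, against 9.55% of 27025 genes, and none held a pair of half-sites at most 13 bases apart, which 0.0731% of 32851 promoters did. A half-site match is a description of the letters only, and its absence from these windows says nothing of binding elsewhere.

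In the annotation of mm10, the gene bodies of Bax (chr7:45461697-45466898, minus), Bbc3 (chr7:16308393-16318205, plus) and Aen (chr7:78895854-78911209, plus) lie on one chromosome, and those of Perp (chr10:18845020-18857073, plus) and Apaf1 (chr10:90989311-91082770, minus) on another. Fas is at chr19:34290666-34327772 (plus), Tnfrsf10b at chr14:69767472-69784411 (plus), Eda2r at chrX:97333840-97377216 (minus) and Phlda3 at chr1:135766119-135769136 (plus).

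Among the members that act at mitochondria, Bax, the pore former, was covered by 1548 reads in the control, 976 with Tut1 targeted, 637 with Trp53 targeted and 621 with both. Scaled by effective library size (TMM), these were 387, 326, 187 and 208 CPM, with 95% counting intervals of 368 to 407, 306 to 347, 173 to 202 and 192 to 225. The control was highest, and both libraries with Trp53 targeted, whose intervals overlap each other, lay below both others. Bbc3, whose product Puma binds the pro-survival Bcl2 proteins, stood at 30.8, 41.4, 10 and 10.4 CPM in the same order of libraries, from 123, 124, 34 and 31 reads, with intervals of 25.6 to 36.7, 34.4 to 49.4, 6.92 to 14.0 and 7.05 to 14.7. Its order differed from that of Bax, with the Tut1-targeted library above the control. Pmaip1, which encodes Noxa, an antagonist of Mcl1, had 40, 18, 1 and 1 reads, or 10, 6.01, 0.294 and 0.335 CPM, so 1 read carries its level in either library with Trp53 targeted. Apaf1, the scaffold of the apoptosome, was at 35, 30.7, 22.1 and 13.4 CPM from 140, 92, 75 and 40 reads, a smaller spread than that of Bbc3.

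At the cell surface are 3 receptors and Perp. Fas, the receptor of Fas ligand, had 32, 33, 7 and 6 reads (8.01, 11, 2.06 and 2.01 CPM). Tnfrsf10b, the receptor of the ligand TRAIL in mice, had 16, 15, 2 and 6 reads (4.0, 5.01, 0.588 and 2.01 CPM). Eda2r, the X-linked receptor of the ectodysplasin A2 isoform, had 96, 41, 7 and 17 reads (24.0, 13.7, 2.06 and 5.69 CPM), and its double-targeted library lay above the Trp53-targeted one. The libraries with Xist reads held its values of 13.7 and 2.06 CPM and those without held 24.0 and 5.69, and the part of embryo sex in it was not tested. Perp, a membrane protein of desmosomes that p53 induces, had 17, 19, 3 and 5 reads (4.25, 6.34, 0.882 and 1.67 CPM). In Fas, Tnfrsf10b and Perp alike, the Tut1-targeted library was above the control with an overlapping interval.

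Of the other 2 members, Aen encodes a nuclease that digests DNA and RNA in dying cells, and Phlda3 a small protein that competes with Akt for membrane lipids and so holds back a survival signal. Aen stood at 41.5, 35.1, 19.1 and 26.1 CPM from 166, 105, 65 and 78 reads. Phlda3 had 129 reads in the control and 14, 9 and 8 in the Cre-treated libraries, or 32.3, 4.67, 2.65 and 2.68 CPM, with intervals of 27.0 to 38.4, 2.56 to 7.84, 1.21 to 5.02 and 1.16 to 5.28. It was the only member of the 10 for which the intervals of all 3 Cre-treated libraries overlapped, with the control above them. Bax shares its strand and position in part with Gm45808 and Fas with Gm27818, so reads of either pair may have been counted for the other gene.

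**Figure D1:**
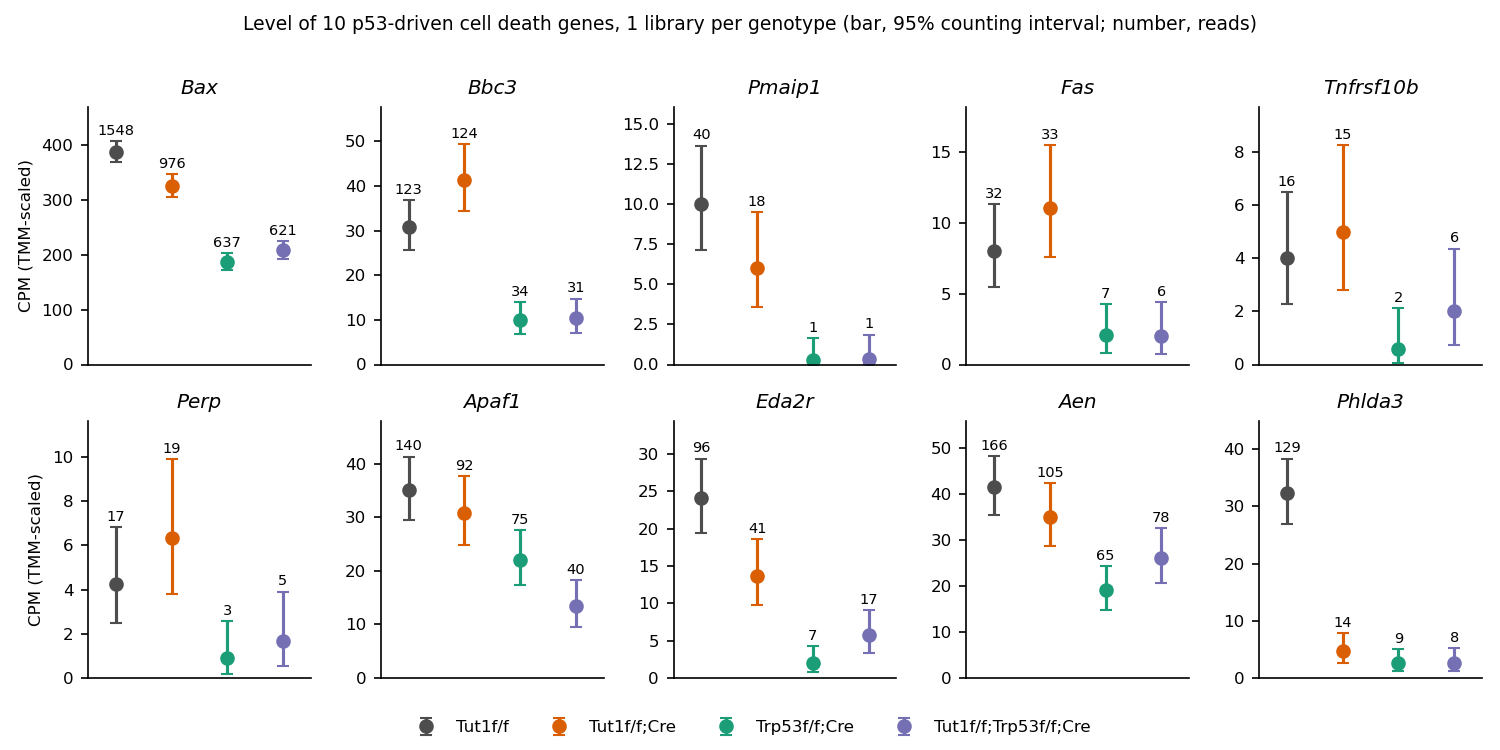
Level of each of the 10 genes in CPM (TMM-scaled, linear axes from 0) in the 4 libraries, with exact Poisson 95% counting intervals as bars and the number of reads above each point. In every panel both libraries with Trp53 targeted lie below both other libraries, and in Phlda3 the Tut1-targeted library (14 reads) lies near them.

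The first comparison asks how the programme stood in the 2 libraries in which Trp53 was targeted, against the 2 in which it was not. All 10 members had both libraries with Trp53 targeted below both others, an arrangement found in 10.9% of the 9882 genes with enough reads to be tested. For 8 members the gap between the nearer pair of libraries was at least 1.5-fold, against 1.07% of all genes, a limit chosen after the values were seen. The gap was widest in Pmaip1, at 17.9-fold, then in Fas at 3.89-fold and Bbc3 at 2.96-fold, and it was under the limit in Apaf1 (1.39-fold) and Aen (1.34-fold). No member had both libraries with Tut1 targeted on one side of the others, an arrangement that 14.3% of genes showed as lower and 13.7% as higher.

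An additive model over the 4 libraries (edgeR's quasi-likelihood test, terms for Trp53 and Tut1 status, 1 residual degree of freedom) gave a log2 fold change below 0 with Trp53 targeting for all 10 members, with a median of -1.97 against -0.01 over all genes tested. No member was called, a call being a Benjamini-Hochberg false discovery rate (FDR) under 0.05 and a change of at least 2-fold, and 1 gene of 9882 was (0.0101%). The lowest FDR was that of Pmaip1, with a log2 fold change of -4.51 (SE 1.10, edgeR FDR 0.108), the 4th smallest p among all genes. At an unadjusted p under 0.05, 6 members were lower, where 1.02% of all genes were, and DESeq2 gave 5 members against 0.486%. After Pmaip1 these were Eda2r (log2 fold change -2.33, SE 0.736), Bbc3 (-1.80, SE 0.601), Phlda3 (-2.32, SE 0.793), Fas (-2.18, SE 0.815) and, by edgeR alone, Perp (-2.05, SE 0.95). Tnfrsf10b had -1.89 (SE 0.981), Apaf1 -0.92 (SE 0.579), Bax -0.85 (SE 0.442) and Aen -0.77 (SE 0.562), with unadjusted p from 0.0538 to 0.170. The error in this fit is the departure of 4 unreplicated libraries from additivity, and Phlda3 moved between -0.80 without the control and -3.59 without the Tut1-targeted library. Fits of Trp53 status to 3 libraries had no Tut1 term. Without the Tut1-targeted library such a fit sets 2 Cre-treated libraries against the lone control, assumed to vary like them, so Trp53 and Cre mRNA cannot be told apart in it. It called 1474 genes of 10567, with 5 members (Bbc3, Pmaip1, Fas, Eda2r and Phlda3) among them, and Bax had an edgeR FDR of 0.0210 at a log2 fold change of -0.98, short of 2-fold. Without the control, where the Tut1-targeted library stands alone, Bbc3 was called among 15 genes of 10231.

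**Figure D2:**
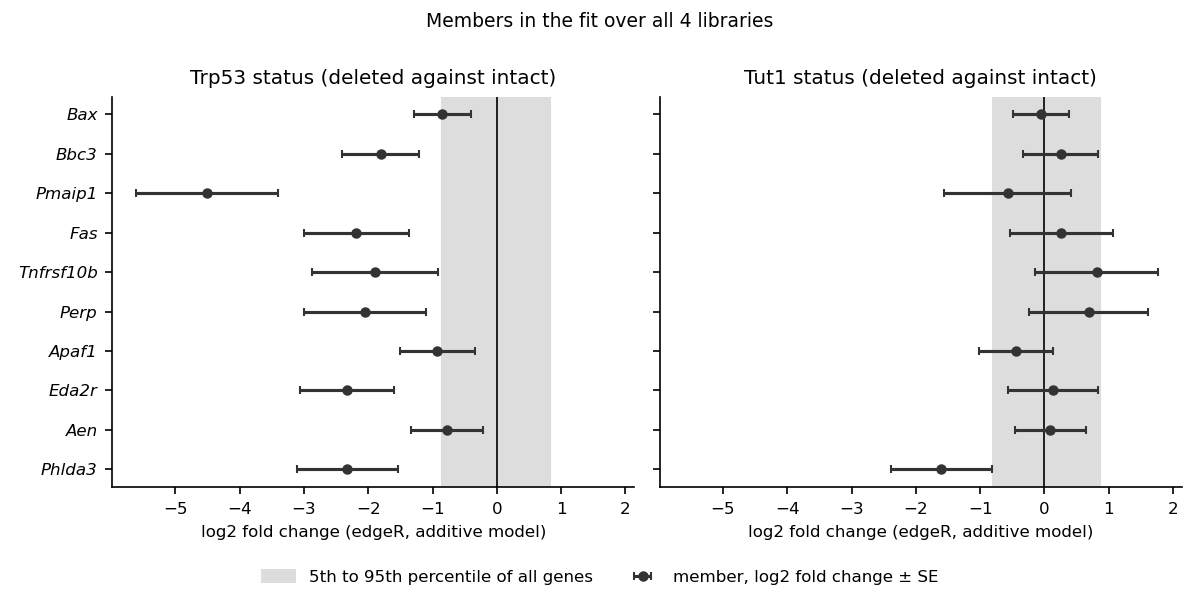
Log2 fold change (edgeR, additive model over 4 libraries) of each member for Trp53 status and for Tut1 status, with the standard error as bars and the range from the 5th to the 95th percentile of all 9882 genes in grey. For Trp53 status 8 points lie left of the grey range, whereas for Tut1 status only Phlda3 lies outside it.

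Between the Trp53-targeted library and the control, nearly the whole set differed. By a rule of at least 2-fold and a 95% counting interval of the ratio that excludes 1, which describes 2 libraries and is no test between genotypes, 9 members were lower and none higher, where 14.3% of genes were lower and 13.2% higher. The median log2 ratio of the 10 members was -1.76, beside 0.02 for all genes (both with 0.5 CPM added). Pmaip1 differed by a log2 ratio of -5.09, from 1 read against 40, with an interval of -10.43 to -2.53. Phlda3 (-3.61, -4.77 to -2.64) and Eda2r (-3.55, -4.90 to -2.45) followed, and Tnfrsf10b was at -2.77, Perp at -2.27, Fas at -1.96 and Bbc3 at -1.62. Aen, at -1.12 (-1.56 to -0.70), and Bax, at -1.05 (-1.18 to -0.91), lay close to the limit of the rule. Apaf1 was the exception, with -0.67 (-1.09 to -0.25). Reads inside Tnfrsf10b that the table assigned to no gene, 92 against 95, outnumbered its 2 and 16 assigned reads and did not differ beyond counting error (0.19, -0.24 to 0.62). Over all reads without a gene the log2 ratio of this comparison was higher, at 0.90.

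Between the Tut1-targeted library and the control, 1 of the 10 genes met the rule. This was Phlda3, at a log2 ratio of -2.79 (interval -3.70 to -1.99), where 12.8% of genes were lower, and none of the 10 was higher, where 13.1% of genes were. The median was -0.21, beside 0.02 over all genes. Eda2r was lower by less than the rule asks (-0.81, -1.38 to -0.27), as was Bax (-0.25, -0.37 to -0.13), and Bbc3 was above the control (0.43, 0.06 to 0.80). The intervals of the remaining 6 included 0: Perp 0.58, Fas 0.46, Tnfrsf10b 0.32, Apaf1 -0.19, Aen -0.24 and Pmaip1 -0.74. In the additive model no member was called for Tut1 status by edgeR or DESeq2, nor was any of the 9882 genes by edgeR. Phlda3 alone had an unadjusted p under 0.05 there (log2 fold change -1.60, SE 0.786, edgeR FDR 1), where 0.83% of genes did in that direction, and DESeq2 gave none of the 10, where 0.364% of genes did. In fits to 3 libraries without a Trp53 term, all 10 members had a log2 fold change above 0 without the control. All 10 were below 0 without the Tut1-targeted or without the Trp53-targeted library. The sides of each such fit also differ in Trp53 status, and shares of all genes in these fits are not given here.

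Where Trp53 was also targeted, Tut1 targeting came with no difference beyond counting error in 8 members. In the double-targeted library against the Trp53-targeted library, Eda2r was the one member past the rule, at a log2 ratio of 1.47 (0.12 to 2.98) from 17 reads against 7, where 4.07% of genes were higher and 3.01% lower. Over coding transcripts only, Eda2r did not pass (5 reads against 4, 0.51, -1.71 to 2.84) and Aen did, as higher (15 against 6, 1.51, 0.06 to 3.16), where 4.13% of genes were higher. Apaf1 was lower without reaching 2-fold (-0.72, -1.31 to -0.15). The other 8 intervals included 0, and they were wide: that of Pmaip1 ran from -6.11 to 6.48, that of Tnfrsf10b from -0.71 to 5.11 and that of Phlda3 from -1.56 to 1.56, so differences of 2-fold were not detectable in these genes at this depth. Bax, with the most reads, was held to -0.01 to 0.31. The median of the members was 0.11, beside -0.02 for all genes.

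The double-targeted library against the Tut1-targeted library compares libraries that share Cre mRNA and floxed Tut1. Besides Trp53 they differ in culture, in embryo sex (44 against 0 Xist reads for the Tut1-targeted and the double-targeted library) and in the level of Tut1 (3.67 against 9.04 CPM), and the part of these was not tested. By the rule 6 members were lower and none higher, where 2.52% of genes were lower and 2.06% higher, and the median was -1.18 beside 0.00 for all genes. They were Pmaip1 (-4.17, -9.55 to -1.50), Fas (-2.46, -4.00 to -1.18), Bbc3 (-2.00, -2.61 to -1.42), Perp (-1.92, -3.70 to -0.45), Eda2r (-1.27, -2.17 to -0.42) and Apaf1 (-1.20, -1.77 to -0.65). Bax (-0.65, -0.80 to -0.50) was lower by less than 2-fold, and the intervals of Tnfrsf10b (-1.32), Phlda3 (-0.80) and Aen (-0.42) included 0. The 2 remaining pairs, which reuse these libraries, gave 6 members lower in the double-targeted library against the control, where 9.94% of genes were lower and 10.1% higher, and 6 in the Trp53-targeted library against the Tut1-targeted library, where 2.14% were lower and 1.24% higher.

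**Figure D3:**
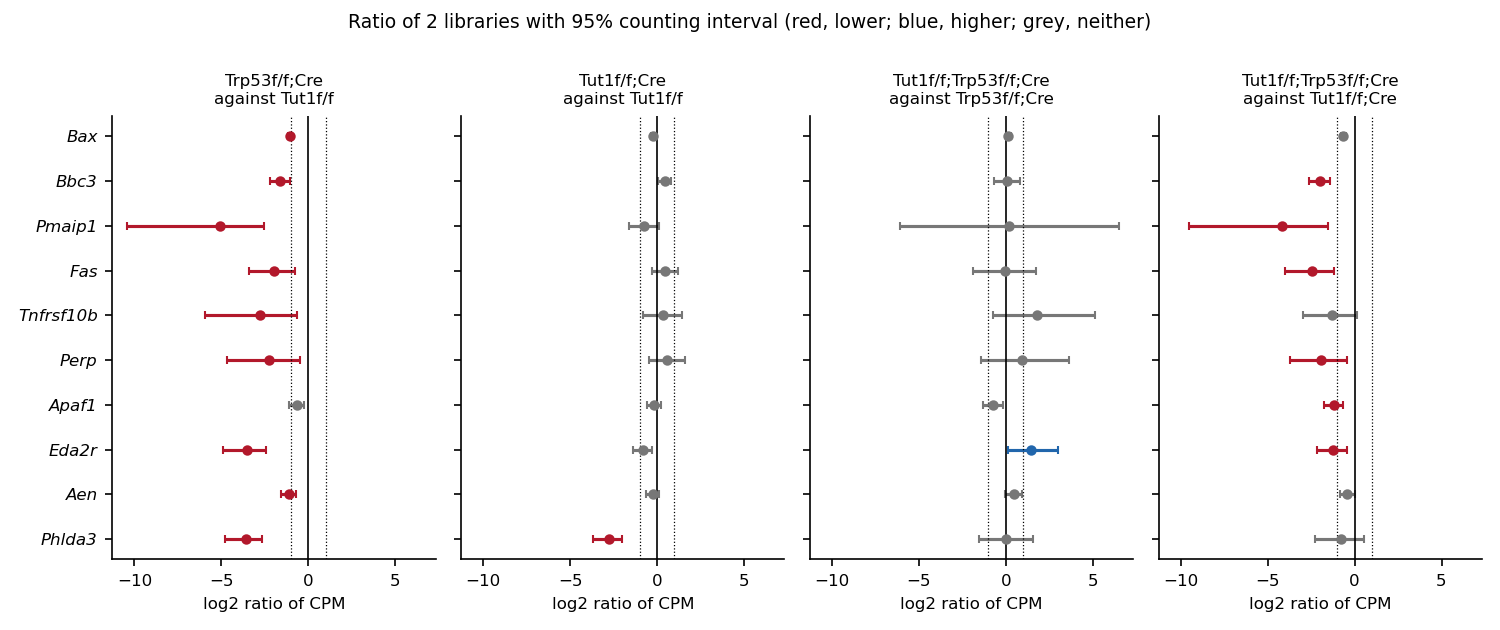
Log2 ratio of CPM between 2 libraries for each member in 4 comparisons, with the exact 95% counting interval as a bar, dotted lines at 2-fold, and colour for members past 2-fold with an interval that excludes 0. In the first panel 9 red points stand against 1 (Phlda3) in the second, and the third panel has 1 blue point, Eda2r.

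Long reads also show which isoform of a member was read, and 2 mitochondrial members were read on transcripts that encode no protein in the annotation. Every Bbc3 read was assigned to a variant of ENSMUST00000147267, an annotated retained-intron transcript of 881 nt. Between 95% and 97.3% of Apaf1 reads were on Apaf1-204 (ENSMUST00000160725), a processed transcript of 511 nt at the 3′ end of the gene, and no coding transcript of Apaf1 was listed. The values of both genes above are thus counts of those transcripts. Pmaip1, Tnfrsf10b, Perp and Phlda3 were read wholly on annotated coding transcripts or variants of them.

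Aen showed the largest shift between isoforms. Aen-206 (ENSMUST00000172017), a processed transcript of 393 nt with 2 exons, made up 20.5% of Aen reads in the control (34 of 166), 67.6% with Tut1 targeted (71 of 105), 75.4% with Trp53 targeted (49 of 65) and 55.1% with both (43 of 78). The Wilson 95% interval of the control, 15.0% to 27.3%, lay below those of the 3 Cre-treated libraries, of which the lowest began at 44.1%. The coding transcript Aen-201 (ENSMUST00000107421, 2007 nt) went the other way, with 25.3%, 3.81%, 6.15% and 8.97%, and so did a variant of Aen-203 (4956 nt) with 21.7%, 3.81%, 3.08% and 10.3%. Together the coding transcripts of Aen held 78 of 166 reads in the control and 8 of 105, 6 of 65 and 15 of 78 in the others. Counted over coding transcripts only, a choice made after seeing the data, Aen was lower in the Tut1-targeted library than in the control by a log2 ratio of -2.87 (-4.13 to -1.82), whereas over all its reads the ratio was -0.24. By that count 3 members (Aen, Eda2r and Phlda3) were past the 2-fold rule as lower there, where 14.5% of genes were lower and 5.37% higher.

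In Eda2r the longest coding transcript took a smaller share of reads in the Tut1-targeted library than in the control. This transcript, Eda2r-201 (ENSMUST00000037353, 4752 nt), held 45 of 96 reads in the control, 5 of 41 with Tut1 targeted, 0 of 7 with Trp53 targeted (Wilson 95% upper bound 35.4%) and 3 of 17 with both, and the retained-intron transcript Eda2r-204 of 779 nt had 2, 12, 1 and 2 reads. Over coding transcripts only, Eda2r was lower in the Tut1-targeted library than in the control by a log2 ratio of -2.27 (-3.47 to -1.25). Bax kept its main coding entries in every library, Bax-201 with 51.4%, 45.3%, 56.2% and 55.2% of reads and a variant of Bax-203 with 28.7%, 34.9%, 21.4% and 24.2%, while the unaltered Bax-203 had 80 reads in the control and 11, 5 and 10 elsewhere.

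Usage was compared between libraries with Fisher's exact test (2-sided) of read numbers, adjusted over all isoforms tested, with a call at FDR under 0.05 and at least 10 percentage points. Such a test compares 2 libraries and not 2 genotypes. The Tut1-targeted library against the control gave calls for 5 of 19 member isoforms, where 8.66% of all isoforms were called: Aen-206 (FDR 1.55e-12), Aen-201 (FDR 4.85e-05), the Aen-203 variant (FDR 0.00066), Eda2r-201 (FDR 0.00149) and Eda2r-204 (FDR 0.000204). The Trp53-targeted library against the control gave 3 of 13, all in Aen (Aen-206 at FDR 1.35e-12), where 9.12% of isoforms were called, and the double-targeted library against the control gave 2 of 13, also in Aen, where 6.49% were. Between Cre-treated libraries, none of 12 member isoforms was called in the double-targeted library against the Trp53-targeted library, where 1.24% were. The Bax-203 variant was the single call of 13 in the double-targeted library against the Tut1-targeted library (24.2% against 34.9%, FDR 0.00408), where 0.15% of isoforms were called, and it was 1 of 2 calls of 11 in the Trp53-targeted library against the Tut1-targeted library (21.4% against 34.9%, FDR 5.88e-06), with Bax-201 higher there (FDR 0.00719), where 0.222% were. The shifts in Aen and Eda2r set shorter against longer transcripts, and the median transcript length was 1249 nt in the control against 1015 to 1062 nt in the other libraries. Its part in these shifts was not tested.

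**Figure D4:**
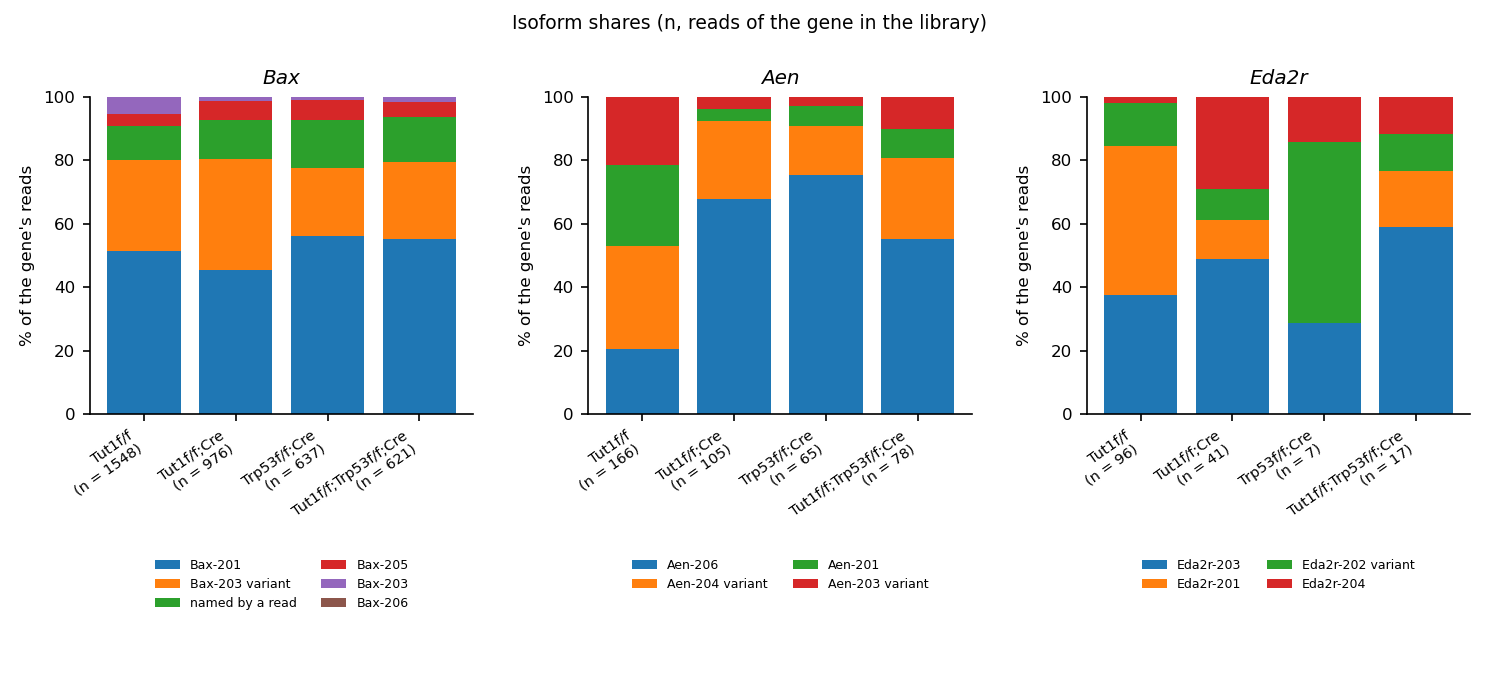
Share of each gene's reads (percent, stacked to 100) on each isoform of Bax, Aen and Eda2r in the 4 libraries, with the number of reads of the gene under each bar. Aen-206 grows from 20.5% in the control to between 55.1% and 75.4% in the other libraries, and the Eda2r bars of the Trp53-targeted library and the double-targeted library rest on 7 and 17 reads.

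Genes around the 10 in the same pathway were taken from lists of known p53 targets and death genes. Of 25 other p53 targets 22 were tested, and with Trp53 targeting 18 had a log2 fold change below 0 (median -0.69), 8 of them at an unadjusted p under 0.05 (1.02% of all genes were lower at that p) and none called by edgeR. In the Trp53-targeted library against the control, 11 were lower and 1 higher by the 2-fold rule (all genes 14.3% and 13.2%), among the lower Ccng1, a cyclin that p53 induces (log2 ratio -3.17), Ak1, an adenylate kinase (-3.13), Mdm2, the ligase that degrades p53 (-2.09), and Cdkn1a, the cell cycle inhibitor p21 (-1.89). In the Tut1-targeted library against the control 4 were lower (Ccng1, Ak1, Psrc1 and Sesn1) and 2 higher (all genes 12.8% and 13.1%). Sesn1, a stress-response protein, was at -3.14 and Polk, a DNA polymerase, at 2.01. Ccng1 and Ak1 were thus lower than in the control with either Tut1 or Trp53 targeted. In the double-targeted library 1 was lower and none higher against the Trp53-targeted library (all genes 3.01% and 4.07%), and 8 were lower and 1 higher against the Tut1-targeted library (all genes 2.52% and 2.06%), with Cdkn1a at -1.55.

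Other lists covered the rest of the death machinery. None of the members of the following lists was called by edgeR for either status or had an unadjusted p under 0.05, and the shares of all genes past the rule are those just given. Of 4 pro-death Bcl2 relatives tested, Bak1, the partner of Bax, and Bid were lower in the Trp53-targeted library against the control (-1.19 and -1.17) and Bak1 and Bok in the Tut1-targeted library against the control (-2.26 and -1.32), with 0 past the rule in the other 2 comparisons. Of 3 pro-survival relatives, Bcl2l1 was lower in both comparisons with the control (-1.38 and -1.88), Bcl2 was higher in the Tut1-targeted library, and none passed elsewhere. Among 9 caspases and released mitochondrial factors only Casp8 passed, lower in the Tut1-targeted library against the control from 2 reads against 14. Of 5 caspase inhibitors Birc6 was higher in both comparisons with the control (1.31 and 1.35), and of 4 further death-receptor genes Ripk1 was, with no other gene of either list past the rule in any of the 4 comparisons.

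Among 8566 genes with a mean of at least 5 CPM, those whose profile over the 4 libraries was nearest to the mean profile of the 10 members (root mean square difference of centred log2 values) were Mdm2 (0.14), Bmper (0.15), Trp53inp1 (0.19), Gdf15 (0.19) and Apoe (0.20). Mdm2 had 60, 29, 12 and 12 reads, and Gdf15, a secreted stress cytokine, 71, 49, 20 and 20. The profile rests on 4 points, and many genes can lie near any such profile.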

How the data were processed

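The authors deposited 1 table of isoforms by library with whole-number read counts, not normalized. The methods name minimap2 and FLAIR for long reads of embryonic tissue, and the tool for this table is not given in the sources used here. The submitters' processing notes name build mm10 for it. Entries were summed by Ensembl gene with GENCODE symbols, and entries without a gene were left out of gene levels. Gene counts passing edgeR's expression filter were scaled by TMM and tested with edgeR 4.0.16 (quasi-likelihood, additive in Trp53 and Tut1 status), with DESeq2 1.42.0 as an alternative, in R 4.3.3. The standard error is the log2 fold change divided by the root of its F statistic. Ratios of 2 libraries carry exact Clopper-Pearson intervals, single levels Poisson intervals and shares Wilson intervals, at 95%. Reads come from PCR products without molecular identifiers, so intervals cover counting error only, and each genotype has 1 library. Levels count reads, not bases. Isoform usage was tested for isoforms of at least 10 reads over both libraries, where the gene had 20 or more in each. Steps were tested on simulated data. Samples were grouped by the genotype and treatment labels. The 10 genes, the gene lists and the tests were chosen with earlier results of these data known. Named outside the 10 were Tut1, Trp53, the 5 nearest profiles and up to 6 list genes per comparison of at least 10 CPM. Bcl2, Casp8, Ripk1, Pidd1, Tnfrsf21, Tradd and the marker and sex-linked genes fall outside that rule and were named after their values were seen.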

Additional observations from a re-analysis of the deposited data

Results flagged for a closer look

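Reads on entries without a gene were more abundant in every Cre-treated library than in the control, by a log2 ratio of 0.96 with Tut1 targeted, 0.90 with Trp53 targeted and 0.70 with both. Reads placed inside members by position but not assigned to a gene were not used above. With Tut1 targeted they exceeded the control beyond counting error for Bbc3 (23 reads against 6), Fas (12 against 0), Apaf1 (108 against 42), Eda2r (53 against 10) and Aen (156 against 109), and with Trp53 targeted for Apaf1 (100 against 42). The log2 ratio for Aen, 0.93, was no larger than that over all such reads. With both targeted, no member exceeded the control beyond counting error, and Tnfrsf10b had 38 reads against 95, a log2 ratio of -0.90 (-1.48 to -0.34), where it had 92 against 95 with Trp53 targeted (0.19, -0.24 to 0.62).

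The ratio between libraries with and without Tut1 targeting had opposite signs in the 2 Trp53 backgrounds for 6 of 10 members, as for 61.4% of all 9882 genes. With Trp53 untargeted and with Trp53 targeted, in that order, the log2 ratios were -0.25 and 0.15 for Bax, -0.74 and 0.19 for Pmaip1, 0.46 and -0.035 for Fas, -0.81 and 1.47 for Eda2r, -0.24 and 0.45 for Aen, and -2.79 and 0.018 for Phlda3. These differences were not tested, since each background has 1 library a side. Eda2r was the one member of the 6 whose counting intervals excluded 0 in both backgrounds.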

How the results depend on the processing

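No paired analysis was possible because each genotype has 1 library. For Trp53 status, edgeR called (FDR under 0.05 and at least 2-fold) 0 members with all libraries and 0 to 5 when 1 library and the Tut1 term were left out: 1 without the control, and 5 without the Tut1-targeted library, where Cre mRNA and Trp53 cannot be told apart. The log2 fold change of Phlda3 for Tut1 status changed sign, to 0.47, when the control and the Trp53 term were left out together, and ranged from -3.12 to 0.47 over left-out libraries, all without that term. Members below 0 for Tut1 status, 4 with all libraries, ranged from 0 to 10 over those fits. The sides of each such fit also differ in Trp53 status, and its part was not tested. Among members past the 2-fold rule, unaltered Ensembl transcripts alone gave 5 for Trp53-targeted against control, where all entries gave 9. Bbc3 and Tnfrsf10b have no unaltered transcript among their entries, and the share of all genes by such transcripts is not given here. For Tut1-targeted against control a 1.5-fold limit gave 2 (21.3% of all genes lower) and protein-coding isoforms 3 (14.5% lower), where the rule gave 1. For double-targeted against Trp53-targeted the rule gave 1. A 1.5-fold limit gave 2, Eda2r as higher (9.56% of all genes higher) and Apaf1 as lower (8.89% lower). A 3-fold limit gave 0 (0.708% of all genes lower, 1.15% higher), and the control as reference 6 (9.94% lower). For double-targeted against Tut1-targeted, protein-coding isoforms gave 3 (1.64% of all genes lower), where all gave 6, since Bbc3 and Apaf1 have no such reads and Eda2r had 5 against 9. For isoform usage, a limit of 20 points gave 1 for Trp53-targeted against control, where 10 points gave 3, and 0 for double-targeted against Tut1-targeted, where 10 points gave 1. A minimum of 50 gene reads gave 3 for Tut1-targeted against control, where 20 gave 5, leaving out Eda2r. Shares of all isoforms called at the 20-point limit and the 50-read minimum are not given here. The other 75 alternative values of these counts and medians moved less, which does not say that the members counted are the same: for double-targeted against Trp53-targeted, protein-coding isoforms also gave 1, but Aen in place of Eda2r. All members tested stayed below 0 for Trp53 status under every alternative fit. Counts by protein-coding isoforms were chosen after seeing the data. Depth limits Pmaip1, Fas, Tnfrsf10b, Perp, Eda2r and Phlda3, each with fewer than 20 reads in both libraries with Trp53 targeted.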
